A study of Caenorhabditis elegans with 2 samples.

Results

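KLF-2 peaks inside introns, away from promoters and from genes of small structural RNAs, numbered 495 of the 2927 peaks of the joint ranked list of both replicates. KLF-2 is a Krüppel-like zinc-finger protein of the nematode Caenorhabditis elegans. It was mapped by ChIP-seq, in which protein-bound chromatin is pulled down with an antibody and its DNA is sequenced, in mid-stage embryos (age 1.5 hours) obtained by bleaching. The strain, RW12310, carries klf-2 with a TY1, EGFP and 3xFLAG tag inserted with CRISPR, and the antibody was directed against GFP, so the tagged protein was measured. The chromatin came from whole embryos, in which strong occupancy in few cells and weak occupancy in many cannot be told apart. There was 1 group of 2 biological replicates and no second genotype, stage or treatment. Per the strain label, the tagged allele is on II, whereas the annotation has klf-2 on V. Read numbers are not given in the files, so depth is unknown.

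The members were chosen on measured values and on annotation. A peak had to have an irreproducible discovery rate (IDR, which scores how well the ranks of a peak match in 2 replicates) of 0.05 or less. Its summit had to lie in a protein-coding gene but in no exon, outside every window from 1000 bp upstream to 500 bp downstream of a coding transcript start, and more than 100 bp from any tRNA, snoRNA or snRNA gene or rpr-1, the RNase P RNA gene. Of 111583 ranked peaks, 2927 (2.62%) passed the IDR threshold. Of these, 1483 had their summit in a protein-coding gene, 748 of those in no exon, 526 of those outside promoter windows, and 495 away from small-RNA genes. Of all ranked peaks that met the annotation criteria, 1.77% passed the threshold. Just inside it, by −log10 IDR, were peaks in pgl-2 (1.3023), dhs-13 (1.3029) and pax-3 (1.3036), and just outside it were peaks in Y67D8A.2 (1.3001), sre-9 (1.2990) and F52D2.7 (1.2983). The signal values of these 6 peaks did not separate inside from outside: 66.1, 58.2 and 57.1 inside, and 52.7, 4.59 and 69.97 outside.

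Krüppel-like factors bind DNA through a block of zinc fingers near the carboxyl end, and their known sites are GC-rich boxes of the CACCC and GC-box kind. In mammals, members of the family act as activators or repressors in growth, differentiation and metabolism. Introns of C. elegans genes can carry enhancers and alternative promoters, and many of them, above all on chromosome arms, hold dispersed and tandem repeats.

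Several kinds of sequence recurred under the summits and are shown first because the results turn on them. All are the plus strand of ce11. The first set is the central 100 bp of those of the 20 highest members that hold a sequence called more frequent at the summit than in the flanks (below; members on 1 of the chromosomes are not printed), with those sequences in capitals. The peak in mdt-26 holds 3 such sequences too, among them CGCGCC, and is printed in the second set, where only its KLF box is in capitals.
let-268, chrII:10034935-10035034: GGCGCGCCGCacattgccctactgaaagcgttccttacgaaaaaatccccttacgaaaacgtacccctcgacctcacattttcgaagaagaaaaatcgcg
srw-100, chrV:1713952-1714051: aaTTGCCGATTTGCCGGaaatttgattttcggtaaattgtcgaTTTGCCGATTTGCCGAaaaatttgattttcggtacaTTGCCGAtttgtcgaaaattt
unc-104, chrII:7001572-7001671: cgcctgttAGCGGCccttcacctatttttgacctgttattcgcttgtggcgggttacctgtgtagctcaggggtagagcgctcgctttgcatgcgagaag
usp-39, chrII:2570745-2570844: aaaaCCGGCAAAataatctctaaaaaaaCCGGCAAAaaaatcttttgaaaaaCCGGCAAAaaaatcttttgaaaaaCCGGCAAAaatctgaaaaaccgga
Y46G5A.34, chrII:12778573-12778672: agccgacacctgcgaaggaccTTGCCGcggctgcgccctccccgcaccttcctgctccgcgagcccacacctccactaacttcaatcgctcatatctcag

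The second set shows the KLF box, CCGCCC or CCACCC on either strand, in capitals. It holds the 4 members with the highest signal values among those with a box on the same chromosomes, and was chosen after their values were seen.
mdt-26, chrII:5661819-5661918: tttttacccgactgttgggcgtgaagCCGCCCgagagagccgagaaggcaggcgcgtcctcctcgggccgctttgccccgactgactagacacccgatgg
max-2, chrII:13016557-13016656: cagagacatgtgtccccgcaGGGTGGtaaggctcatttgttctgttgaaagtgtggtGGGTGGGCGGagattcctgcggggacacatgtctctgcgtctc
lit-1, chrIII:13721299-13721398: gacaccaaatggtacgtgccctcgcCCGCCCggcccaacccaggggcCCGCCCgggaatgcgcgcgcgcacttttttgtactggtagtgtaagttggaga
T19C3.6, chrIII:629057-629156: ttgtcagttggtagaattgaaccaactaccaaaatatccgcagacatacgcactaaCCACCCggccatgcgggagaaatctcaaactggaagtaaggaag

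The third set shows a tandem repeat, with CGGCAA or its complement TTGCCG in capitals. It too was chosen after values were seen. The peak in pqn-80 is given over its whole 296 bp and that in C54E4.12 over its central 100 bp.
pqn-80, chrIII:12636381-12636676: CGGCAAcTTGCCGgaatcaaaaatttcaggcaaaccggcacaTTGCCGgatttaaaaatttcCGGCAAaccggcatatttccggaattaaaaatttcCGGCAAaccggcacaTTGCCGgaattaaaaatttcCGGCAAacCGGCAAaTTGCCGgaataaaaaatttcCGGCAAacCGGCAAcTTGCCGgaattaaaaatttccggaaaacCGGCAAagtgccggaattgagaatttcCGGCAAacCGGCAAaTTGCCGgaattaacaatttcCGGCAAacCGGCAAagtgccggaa
C54E4.12, chrIV:2139410-2139509: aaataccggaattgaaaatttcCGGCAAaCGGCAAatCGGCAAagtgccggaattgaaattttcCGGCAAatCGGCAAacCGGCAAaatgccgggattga

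Most intronic peaks were of modest and similar height. In the joint list, the signal value that the authors' software assigned was 65.2 at the median, with quartiles of 59.3 and 74.3 and a range from 2.33 to 427. Peaks in promoter windows had a median of 69.9, distal intergenic peaks (outside protein-coding genes and promoter windows) 71.5, and peaks at small-RNA genes 119.5. The maxima of these classes were 1158, 5615 and 873. These values belong to the contrast that chose the peaks and are given as a description. A −log10 IDR of 2 or more was reached by 121 members (24.4%), against 411 of 1015 promoter peaks (40.5%) and 345 of 771 distal intergenic peaks (44.7%). The conservative thresholded list held 118 of the members. Of the peaks with a −log10 IDR of 2 or more, that list lacked 3 members and 6 promoter peaks. It also lacked 162 of the 345 distal intergenic peaks, so their higher share does not carry over to that list. What left them out was not tested. The members were 104 to 296 bp wide, with a median of 296 bp. They formed 471 separate places, since 48 members shared their pair of replicate peaks with another member. Of the 14 members with a signal value under 10, 13 were among those 48.

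The highest member lay in an intron of cmk-1, which encodes calcium/calmodulin-dependent kinase I. Its signal value was 427 in the joint list, 202 in replicate 1 and 198 in replicate 2, and it spanned chrIV:1831308-1831448 in intron 2 of 6. Next came a peak in Y47H10A.4 on chromosome I, with 132 in replicate 1 and 152 in replicate 2. The peak in stim-1, the gene of the endoplasmic reticulum calcium sensor, spanned chrIII:415290-415585 in intron 4 of 11 and had 116 in replicate 1 and 139 in replicate 2. Both replicates thus placed these 3 peaks far above the medians of the members, which were 35.2 in replicate 1 and 32.03 in replicate 2.

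The peak in Y32F6A.5 (chrV:10450504-10450608) had 101 in replicate 1 and 109 in replicate 2. That in let-268, a procollagen lysyl hydroxylase gene, had 102 and 94.2 and lay in the last of its 10 introns. The peak in Y41G9A.17 on X had 81.7 and 110. Then followed srw-100 and srt-52, both genes of chemoreceptor families, with unc-104 between them in rank. The peak in srw-100 had 113 in replicate 1 and 67.5 in replicate 2, and that in srt-52 had 85.95 and 96.8.

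The peak in unc-104, which encodes the kinesin that carries synaptic vesicle precursors, had 79.9 in replicate 1 and 105 in replicate 2. Its central 100 bp, printed above, overlap WBGene00023260 (chrII:7001627-7001698), whose transcript the annotation calls a tRNA pseudogene, and recur for 36 bases at 9 other places, among them a small-RNA gene. The selection rule leaves out tRNA genes but not pseudogenes. The peak in mom-1, the worm Porcupine gene needed to make Wnt ligands, had 94.8 and 74.1 and lay in the last of its 7 introns on X. The peak in Y57G11C.22 had 69.98 and 98.00.

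Of the remaining members among the 20 highest, 2 lay in the same intron of Y51F10.4 (90.5 and 93.3 in replicate 1, 65.6 and 41.7 in replicate 2), and 1 each in Y18H1A.14, mdt-26, hmt-1, max-2, usp-39, Y46G5A.34 and lit-1. The gene mdt-26 encodes a subunit of Mediator. Its peak (chrII:5661721-5662016) had 67.1 in replicate 1 and 60.7 in replicate 2. The gene max-2 encodes a p21-activated kinase of axon guidance, with 50.2 and 67.2. The peak in hmt-1, a transporter gene of heavy-metal tolerance, had 78.1 and 52.5, and that in Y46G5A.34 had 60.7 and 48.7.

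The replicates differed most among these 20 at usp-39, with 102 in replicate 1 and 34.9 in replicate 2, and at lit-1, the Nemo-like kinase gene of Wnt signalling, with 74.8 and 25.6. Y18H1A.14 had 103 and 54.3. Of the 20, 13 were in the thresholded lists of both replicates taken alone, and 2, those in Y18H1A.14 and usp-39, were in neither. Their −log10 IDR was 3.46 and 3.41 in replicate 1's own ranked list, and 2.65 and 0.0238 in that of replicate 2. Both were also absent from the conservative list, although their joint values were 3.14 and 2.66. What left them out was not tested. Replicate 1 was the higher in 12 of the 20.

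Among all members, a summit of replicate 1's own ranked list lay within 100 bp in 428 cases and one of replicate 2's in 429, with both in 384. Of these 384, 329 (85.7%) had signal values within 1.5-fold of each other, and the median ratio of replicate 1 to replicate 2 was 1.09. Ranks of the 384 peaks were nearly unrelated between the replicates (rho 0.0374 by Spearman; r 0.528 by Pearson for log2 values), and the points share the 2 libraries and their unknown depths. Among the 108 of them with a −log10 IDR of 2 or more, rho was 0.228 and r 0.688. Among the other 276, rho was −0.628 and r −0.571. The IDR threshold acts on both replicates together, and these coefficients describe the selected set. The median member ranked 3158 of 63024 in replicate 1 and 3173 of 50044 in replicate 2. The thresholded list of replicate 1 alone held 22 members (4.44%) and that of replicate 2 held 24 (4.85%), 14 of them in both. At the IDR threshold used here, 48 members (9.70%) passed in replicate 1's own ranked list and 47 (9.49%) in that of replicate 2. The same shares of all 2927 peaks were not counted.

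**Figure D1:**
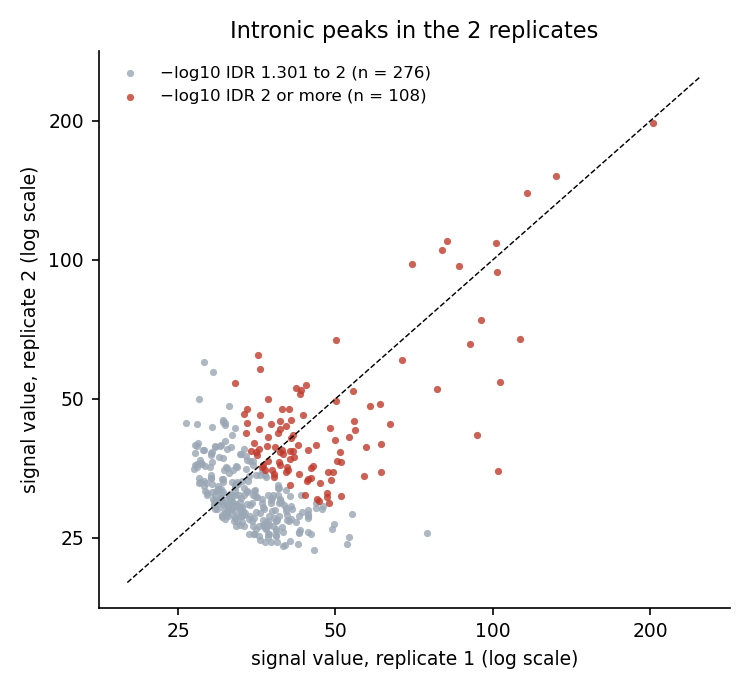
Signal value of each intronic peak in replicate 1 (x axis) and replicate 2 (y axis), both on log scales and in the units of the authors' peak caller, for the 384 peaks found in both ranked lists; the dashed line marks equal values. The 276 peaks of lower reproducibility (grey) form a band that runs against the line, and the 108 peaks with a −log10 IDR of 2 or more (red) extend along it up to the peak in cmk-1, at 202 and 198.

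The peaks were more often in long introns than eligible bases were. The intron that held a summit had a median length of 1301 bp, whereas the median eligible base (intronic and meeting every annotation criterion, 23.8 Mb or 23.7% of the genome) lay in an intron of 983 bp. Introns over 2000 bp held 201 members (40.6%, exact 95% interval 36.2 to 45.1%) and 28.9% of eligible bases. Those over 5000 bp held 82 (16.6%, 13.4 to 20.1%) and 12.3% of eligible bases. The shortest intron had 44 bp, in dys-1, the dystrophin gene, and the longest 16515 bp. Intervals here cover the counting of peaks only.

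The first intron held 95 members (19.2%), with an interval of 15.8 to 22.9% that lies just above the 15.6% of eligible bases there. The third held 53 (10.7%, 8.12 to 13.8%) and 13.3% of eligible bases, and the fourth or a later intron 272 (54.9%) and 56.2%. Of the 121 members with a −log10 IDR of 2 or more, 16 (13.2%) lay in a first intron. With only the peaks of replicate 2's own list (replicate 1 left out) the share was 11.1%, and with only those of replicate 1 it was 7.59%. Along the intron the median summit lay at 50.3% of its length. The median distance was 330 bp to the nearest exon edge of the intron. It was 2254 bp to the nearest coding transcript start of the host gene, on either side of the summit. In 384 cases (77.6%) the nearest coding start was that of the host.

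**Figure D2:**
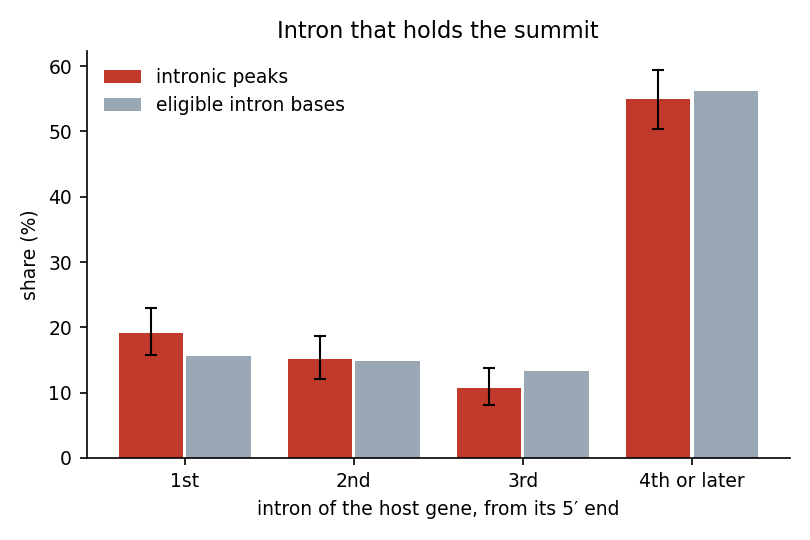
Share (%) of the 495 intronic peaks (red, with exact 95% binomial intervals) and of all eligible intron bases (grey) in the 1st, 2nd, 3rd and later introns of the host gene. First introns held 19.2% of peaks and 15.6% of bases, and introns from the 4th on held 54.9% and 56.2%.

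The peaks were denser on chromosome arms, defined as the outer parts when a chromosome is cut into 3 equal lengths. On the autosomes 376 of 440 members (85.5%, 81.8 to 88.6%) lay in arms, against 74.6% of eligible bases. The share was 85.8% for members with a −log10 IDR of 2 or more and 83.1% for those without a 36-base stretch found elsewhere. It was 84.8% in the list of replicate 2 and 86.1% in that of replicate 1. Per megabase of eligible intron, chromosomes III, I and II held 26.9, 25.8 and 25.3 members, V 19.8, X 13.8 and IV 13.4. Chromosome X had 55 members (11.1%, 8.48 to 14.2%) and 16.8% of eligible bases, and IV had 53 (10.7%, 8.12 to 13.8%) and 16.6%.

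The sequence at the summits was richer in G and C than its surroundings. The central 100 bp had a median of 44% G and C, the flanks (50 bp on each side, beginning 250 bp away from the summit) 39%, and all eligible intron bases 31.9%. The centre was higher in 332 members, lower in 143 and equal in 20 (two-sided exact binomial sign test over peaks of 1 list, p = 2.25e-18). The mean difference was 5.79 ± 10.9 percentage points (SD over 495 peaks). It was 7.30 for members with a −log10 IDR of 2 or more, 6.40 in the list of replicate 2 and 7.14 in that of replicate 1. Flanks touched an exon in 229 members, and with only the 266 whose flanks touched none it was 7.19. Promoter peaks had a median of 47% at the centre and 37% in the flanks, and distal intergenic peaks 43% and 36%. Peaks are not independent replicates, so the tests on sequence describe these lists.

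**Figure D3:**
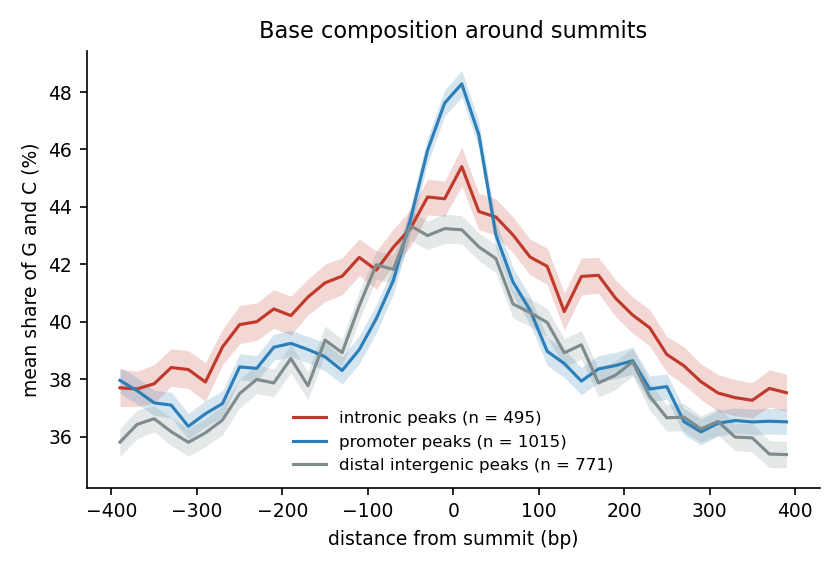
Mean share of G and C (%) in 20 bp bins by distance from the summit (bp), for 495 intronic, 1015 promoter and 771 distal intergenic peaks; bands are 1 standard error over peaks. Intronic peaks rise to 45.4% near the summit, less sharply than promoter peaks and from flanks with more G and C.

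The box of Krüppel-like factors was more frequent under the summits than beside them in numbers, but the difference did not pass the adjustment. The central 100 bp held it in 44 members (8.89%) and the flanks held it in 25 (5.05%; p = 0.0145 in a two-sided exact McNemar test, 0.0578 after adjustment for 20 motifs). CCGCCC and CCACCC were each in 24 centres against 13 flanks, with 4 centres holding both. The adjusted p fell below 0.05 with 1 peak per place (4.46 percentage points, 0.0241), with exons of protein-coding genes only (4.02, 0.0291), in the other ranked list of the whole series (4.84, 0.0374) and without members that hold the tandem repeat described below (4.74, 0.0330). It stayed above 0.05 under the other alternatives: the difference was 2.02 points with flanks from 150 bp (exact McNemar, adjusted p = 0.536), 2.42 with a centre of 25 bp on each side (0.334), 3.01 with flanks in no exon (0.479) and 3.23 without repeated 36-base stretches (0.446). With either replicate alone the adjusted p was 1. Members with the box had a median signal value of 64.2 and the others 65.3.

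The box was held by 3 of the 20 highest members, those in mdt-26, max-2 and lit-1. As the printed sequences show, lit-1 holds CCGCCC at more than 1 position and max-2 holds both forms, which overlap in its longer run of capitals. The peak in daf-16, the FOXO gene of insulin signalling, holds CCACCC and had 50.1 in replicate 1 and 49.3 in replicate 2; it lies within 100 bp of the non-coding RNA gene R13H8.5. In promoter peaks the box was in 122 of 1015 centres (12.02%, 10.1 to 14.2%), and in distal intergenic peaks in 45 of 771 (5.84%, 4.29 to 7.73%). Neither difference from the intronic peaks passed: the odds ratio was 0.714 (95% interval 0.485 to 1.04) against promoter peaks and 1.57 (0.997 to 2.48) against distal intergenic peaks (two-sided Fisher's exact p = 0.0794 and 0.0426, adjusted p = 0.0794 for both over 2 comparisons). Leaving out peaks whose centre recurs elsewhere for 36 bases, the latter odds ratio was 0.847. It was 2.59 in the other ranked list (Fisher's exact adjusted p = 4.25e-05) and 5.91 in the list of replicate 2 (adjusted p = 0.0157).

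Of the 20 motifs, 1 (5%) was called more frequent at the summit and 2 (10%) less frequent. The higher share of G and C at the centre was not taken into account, and its part in these calls was not tested. CGCCGC was found at 33 summits (6.67%) and in 13 flanks (2.63%; adjusted p = 0.0244, exact McNemar test). It had been listed, with CGCGCA and GCGCGC, because it led an earlier search of these data. Its p is therefore a description and no independent support. CGCCGC is among the capitals of the let-268 sequence printed above. The GATA site TGATAA was found at 15 summits and in 43 flanks (exact McNemar test, adjusted p = 0.00307), and a run of T, TTTTTTTT, in 24 against 60 (exact McNemar, adjusted p = 0.000675). The GATA difference, −5.66 percentage points, was −0.81 with flanks from 150 bp (exact McNemar, adjusted p = 0.803), and its call was also lost without repeated 36-base stretches (−4.69, 0.133), with a centre of 25 bp on each side (−2.83, 0.161) and with a promoter window of 2000 bp (−4.69, 0.0540). With flanks from 150 bp the run of T went from −7.27 to −4.85 points (exact McNemar, adjusted p = 0.0523). The splice-acceptor sequence TTTCAG (59 against 86, exact McNemar, adjusted p = 0.0578) and CGCGCA (21 against 8, 0.0639) did not pass. The sites of E-box, homeobox, AP-1, forkhead, NFY, E2F and nuclear receptor proteins did not pass either. Neither replicate's own list gave a call among the motifs (exact McNemar test with Benjamini-Hochberg adjustment; 2 motifs in the list of replicate 2 and 0 in that of replicate 1 had an unadjusted p under 0.05), and they hold only 72 and 79 such peaks. All 3 calls were lost among the 121 members with a −log10 IDR of 2 or more, where the differences were 3.31 points for CGCCGC (4.04 in all members; exact McNemar, adjusted p = 0.982), −6.61 for the GATA site (0.156) and −7.44 for the run of T (0.234). The call of CGCCGC was also lost with a centre of 25 bp on each side (1.41 points, 0.525), with flanks in no exon (3.76, 0.166), with a promoter window of 2000 bp (3.70, 0.0902), without repeated stretches (4.69, 0.0522) and with flanks from 150 bp (3.84, 0.0523).

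**Figure D4:**
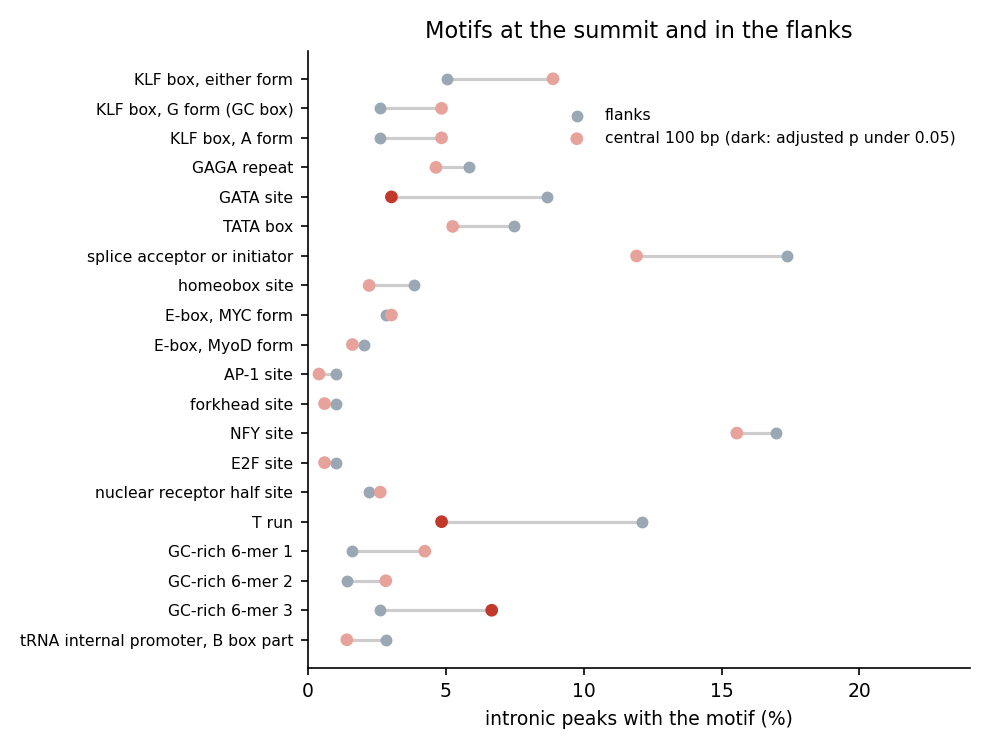
Share (%) of the 495 intronic peaks with each of 20 motifs in the central 100 bp (red) and in the flanks of the same peaks (grey); dark red marks an adjusted p under 0.05 in the exact McNemar test. The GATA site and the run of T are lower at the summit, and of the GC-rich motifs the third 6-mer (33 peaks against 13) is higher. The GC-rich 6-mers had been listed from an earlier search of these data.

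The search over all 2080 6-mers, also not matched for base composition, called 9 (0.433%) more frequent at the summit and 17 (0.817%) less frequent. The higher ones were GGCAAA (100 summits against 61 flanks, adjusted p = 0.00781 in the exact McNemar test), AACGGC (33 against 8, 0.0215), CGGCAA (89 against 61, 0.0356), CCGGCA (67 against 44, 0.0448), AGCGGC (23 against 6, 0.0473), CGCGCC (29 against 8, 0.0473), CCGCGC (24 against 5, 0.0473), TCGGCA (67 against 40, 0.0486) and AAACGG (48 against 20, 0.0494). Of these, the 4 that contain GGCA overlap as parts of 1 longer sequence with variants. CCGGCA and TCGGCA differ only in the first base and are alternatives at the same position. The lower ones were mostly of A and T, apart from AGTCGA (4 against 24, exact McNemar, adjusted p = 0.0296), and were led by AAAAAA (140 against 204, exact McNemar, adjusted p = 0.0101) and AAAATT (164 against 221, 0.0210). The GATA site TGATAA was among the lower ones here too (exact McNemar, adjusted p = 0.0356). CGCCGC, called higher among the 20 motifs, was not called in this wider search.

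The longer sequence was a tandem repeat. At least 3 copies of CGGCAA, on either strand, lay within the 296 bp around the summit in 73 members (14.7%, 11.7 to 18.2%) in 63 host genes. The same was true of 3.88% of all eligible intron positions, of 2.66% of promoter peaks, 4.28% of distal intergenic peaks, 0.292% of other exonic peaks and 0.330% of peaks at small-RNA genes. This pattern was noticed in the same data and was therefore not tested. Neighbouring copies lay most often 8, 35 or 27 bp apart, as the printed pqn-80 sequence shows.

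The peak with most copies, 18, was that in pqn-80, at 41.2 in replicate 1 and 41.1 in replicate 2. The one in C54E4.12, a gene nested in test-1, had 16 copies and 40.8 and 47.5. Another peak in C54E4.12 and that in Y37E3.17 (31.5 and 29.0) also had 16. Among the peaks with 15 copies were those in cnt-2 (35.2 and 30.6), twk-39, a potassium channel gene (32.1 and 32.2), and aqp-12, an aquaporin gene (34.4 and 29.5). Of the 20 highest members 4 held the repeat, those in srw-100, Y51F10.4 and usp-39. Other hosts were daf-2, the insulin receptor gene (14 copies, 38.6 and 26.1), and rpoa-1, the large subunit gene of RNA polymerase I (12 copies, 29.0 and 36.4). These hosts, beyond those among the 20 highest, were chosen after their values were seen. Their heights were not unusual: the 73 had a median signal value of 64.1 and the other 422 members 65.6.

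On the autosomes the members with the repeat lay in chromosome arms, and the repeat was rare on X. All 70 of its autosomal members lay in arms, and without them 82.7% of the remaining autosomal members did. How many of the eligible positions with the repeat lie in arms was not counted, so the 70 have no background. On X 3 of 55 members (5.45%) held it, where 1.15% of eligible positions do. On the autosomes the shares ran from 12.9% on I to 19.3% on II, where those of eligible positions were 4.65% and 5.28%. Of the 73 members, 2 held a KLF box, against 42 of the other 422 (9.95%). In the reference genome a median of 95% of their central bases is masked as repeat, against 29% in the others.

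**Figure D5:**
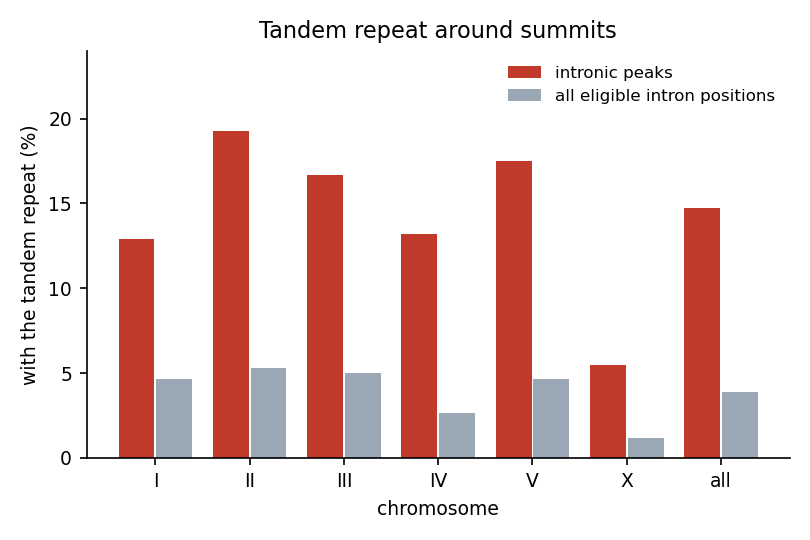
Share (%) of intronic peaks (red) and of all eligible intron positions (grey) with at least 3 copies of the repeated 6-mer within the 296 bp around the summit, by chromosome. The share among peaks is above that of positions on every chromosome, from 5.45% against 1.15% on X to 19.3% against 5.28% on II.

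Repeated sequence reached beyond this family. The central 100 bp of 154 members (31.1%, 27.1 to 35.4%) shared a stretch of 36 bases with another place in the genome, against 15.3% of promoter peaks and 49.3% of distal intergenic peaks. Of these 154, 79 matched 1 to 5 other places and 73 more than 5, up to 220, and in the remaining 2 the stretch recurred only in or beside the centre itself. A copy lay within 20 kb in 80 cases, in a coding exon in 35 and in a small-RNA gene in 2. Among the 20 highest members 12 had such a copy, including cmk-1 (1 other place) and let-268 (17). How reads that map to more than 1 place were treated is not known from the deposited notes used here, and its part in these peaks was not tested. The other 341 members had a median signal value of 64.7, against 66.8 for the 154.

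Some members lay near other annotated genes of non-coding RNA. A gene annotated as ncRNA was within 100 bp of 17 (3.43%), a pseudogene of 2 and a microRNA gene of 1, the peak in Y67D8A.2 at cel-mir-58a. No piRNA, lincRNA or rRNA gene was that close to any of the 495. A summit in an exon of any annotated gene could not be a member, which limits these counts in advance. The share of eligible bases that close to such genes was not counted.

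The peaks lay in 420 of the 15692 protein-coding genes with eligible intron bases (2.68%), and 46 genes held 2 or more separate places. ZK131.11 on II and trp-4 on I held 4 each. The gene trp-4 encodes a mechanosensory channel, and its 4 peaks, in introns 4, 5, 17 and 22 of 23, had 49.5, 51.1, 61.1 and 52.6 in replicate 1 and 34.7, 38.4, 34.7 and 24.2 in replicate 2. All 4 were thus higher in replicate 1. Those with 3 places were mnk-1 and tlk-1, both protein kinase genes, egl-18, a GATA factor gene, klp-20, a kinesin-II subunit gene, lad-2, an L1-type adhesion gene, Y32F6A.5 and Y53F4B.21. In egl-18 the 3 places were in the same first intron of 11084 bp, with 42.01, 28.1 and 28.7 in replicate 1 and 27.1, 35.8 and 35.6 in replicate 2. In Y53F4B.21 they all held the tandem repeat.

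The 37 genes with 2 places were aakg-1, C54E4.12, cdh-1, ceh-43, clec-112, cogc-1, crtc-1, daf-12, daf-16, dyf-19, dys-1, ell-1, emb-4, haf-4, hmt-1, ints-5, kin-1, kin-20, lat-1, let-526, lin-14, neto-1, R107.5, rgs-4, sax-3, sbp-1, spsb-1, swah-1, test-1, vab-10, W06H8.6, Y111B2A.12, Y18H1A.14, Y46G5A.34, Y51F10.4, Y56A3A.28 and Y75B8A.7. Those of C54E4.12 and test-1 are the same places. In lin-14, a heterochronic gene, 1 peak had 32.2 in replicate 1 and 32.5 in replicate 2, and the other was found in replicate 2 alone (43.3). In sax-3, the Robo receptor gene, the peak in intron 5 had 36.9 and 26.2 and that in intron 1 had 26.98 and 38.1.

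Host genes were also counted over 14 lists of gene families, read against the background of 2.68% of genes and 19.8 places per megabase of eligible intron (exact Poisson 95% interval 18.03 to 21.6). Signalling enzymes and G proteins hosted peaks in 26 of 311 genes (8.36%), at 26.6 places per megabase (18.1 to 37.8). The highest were cmk-1, mom-1, max-2 and lit-1, described above. Guidance, adhesion and neurite outgrowth genes did so in 12 of 122 cases (9.84%), at 27.9 per megabase (16.2 to 44.6). Both intervals per megabase include the background. The signalling list holds 4.83% and the guidance list 2.53% of eligible bases.

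In the guidance list the highest host was lad-2 through a peak shared with the nested gene Y54G2A.57 (39.1 in replicate 1 and 36.01 in replicate 2). The netrin receptor gene unc-5 had a peak of 34.9 and 40.1 in its first intron, vab-1, the Eph receptor gene, one of 45.8 and 29.0, and rig-4, an immunoglobulin-superfamily gene, one of 38.02 and 26.5. Which replicate was higher varied from gene to gene.

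Transcription factor genes were counted in 3 lists. Homeobox genes hosted peaks in 4 of 93 cases (4.30%), nuclear hormone receptor genes in 4 of 266 (1.50%) and other sequence-specific factors in 11 of 181 (6.08%). The last group had 35.5 places per megabase (19.9 to 58.5), an interval that lies just above the background of 19.8 and includes part of that value's own interval. Its highest hosts were daf-16, mef-2 (42.1 and 52.6), sbp-1, the SREBP gene of lipid synthesis (35.9 and 46.2 at its higher peak, which holds the tandem repeat), and ztf-20 (40.6 and 35.04). The homeobox hosts were ceh-43, the Distal-less gene (37.1 and 36.7), ttx-1, the Otx gene (30.5 and 31.4), ceh-93 and ceh-99. The receptor hosts were nhr-76 (38.1 and 27.6), daf-12, the dafachronic acid receptor gene, nhr-46 and nhr-65.

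In the lists of excitable cells and of the cell's frame the intervals per megabase all included the background. Ion channel and synapse genes hosted peaks in 13 of 311 cases (4.18%) but at 15.5 places per megabase (8.88 to 25.2). They were led by unc-104, trp-4, unc-64, the syntaxin gene (36.6 and 35.1), and inx-1, an innexin gene (36.4 and 35.97). Muscle genes did so in 3 of 64 cases, lev-11, the tropomyosin gene (44.2 and 38.8), dys-1 and pat-12. Cytoskeleton and motor genes had 4 of 108, vab-10, the spectraplakin gene (48.8 and 43.3), klp-20, daam-1 and act-4. Basement membrane and collagen genes had 5 of 111 (4.50%), test-1, lon-2, a glypican gene (42.5 and 39.7), col-71, adt-1 and col-52, at 38.3 places per megabase (14.1 to 83.4).

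In the remaining lists the intervals per megabase included the background. Membrane transporter genes had 10 of 226 (4.42%, 20.3 places per megabase), led by zipt-15, a zinc transporter gene (58.3 and 48.1), haf-4, hmit-1.1 and slc-36.2. Chromatin regulators had 6 of 137 (4.38%, 19.2 per megabase), led by swsn-1, set-16, taf-1 and egl-27. RNA-binding and splicing genes had 4 of 121 (3.31%), sfa-1, the splicing factor 1 gene (53.03 and 41.2), larp-1 (35.3 and 38.3), ddx-46 and ncl-1. Protein synthesis genes had 2 of 110 (1.82%), wars-1, the tryptophanyl-tRNA synthetase gene (33.8 and 47.6), and mrpl-30. Energy and lipid metabolism genes had 8 of 347 (2.31%), led by acs-20 (48.7 and 29.7), hxk-2, a hexokinase gene (29.98 and 37.4), idhb-1 and gst-40.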

How the data were processed

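Only peak lists were used, with 1 group of 2 biological replicates. For each replicate, and for both together, the authors deposited ranked and thresholded lists from IDR analysis, in ce11 coordinates per the labels. The deposited signal value is that of the authors' peak caller, with no scaling between lists. The deposited score, a capped log2 form of the global IDR, entered no test, and the deposited −log10 global IDR served for selection. The names of the peak caller and aligner were not given in the sources used here. No sequence from chromosome I is printed. The first and second component peaks of the joint list matched the ranked lists of replicates 1 and 2 for 487 and 479 of the 495 members.

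Genes came from Ensembl release 115 and sequence from the RefSeq copy of WBcel235, whose coordinates are those of ce11. An exon of any annotated gene counted as exonic, and introns were gaps in the union of a gene's exons, numbered from its 5′ end. Motifs were searched on both strands in the central 100 bp, as 2 parts of 50 bp, and in 2 flanks of 50 bp that start 250 bp from the summit. Tests were exact McNemar, sign and Fisher's tests with Benjamini-Hochberg adjustment at 0.05 (Python 3.11.15, scipy 1.17.1), tested on simulated data. Intervals are exact 95% binomial, Poisson or conditional intervals and cover counting only.

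The text names the hosts of the 20 highest members, hosts of 2 or more separate places, hosts in the 14 gene lists (the 4 highest where a list has more), and the 3 members on each side of the threshold. The members, motifs and gene lists were chosen with earlier results of these data known. The analysis was repeated under 14 other settings, of which 1 was added after seeing the data. Whether the replicates came from separate cultures is not stated, so their spread may be technical in part.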

Additional observations from a re-analysis of the deposited data

How the results depend on the processing

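No paired analysis was possible because there is only 1 group. The difference in G and C kept its direction and its call under all 14 alternatives (3.26 to 7.47 percentage points), and the share on autosomal arms stayed between 82.7% and 87.8%. The number of members was 121 at a −log10 IDR of 2 or more, 118 in the conservative list and 72 to 79 with 1 replicate left out. The share in first introns was 13.2%, 13.6% and 7.59 to 11.1% under the same 3 settings, and the share on X 8.33% to 8.86% with 1 replicate left out. For the KLF box against flanks, the difference passed in the other ranked list (4.84 points), with coding exons only (4.02), with 1 peak per place (4.46) and without tandem repeat members (4.74), and was 1.27 to 2.78 with 1 replicate left out. The odds ratio against distal intergenic peaks passed in the other ranked list (2.59), with 1 peak per place (1.66) and in the list of replicate 2 (5.91) but not in that of replicate 1 (2.26), and turned to 0.847 without repeated stretches. The 3 motif calls became 0 at the stricter IDR and in the conservative list (exact McNemar; 3 with an unadjusted p under 0.05 in each), 5 in the other ranked list, 0 with either replicate left out, 1 with a promoter window of 2000 bp, 6 with coding exons only, 6 with 1 peak per place, 1 without repeated stretches, 1 with a centre of 25 bp on each side and 0 with flanks from 150 bp (6 unadjusted). The 26 6-mer calls became, in the same order, 1, 1, 11, 0 (29 to 31 unadjusted), 1, 42, 11, 2, 2 and 0 (120 unadjusted), 8 with flanks in no exon and 2 without tandem repeat members (248 unadjusted, against 274 in all members), which were chosen for holding a called 6-mer. The cause of these changes was not tested. The lists with 1 replicate left out and the stricter lists hold fewer peaks, which limits their tests. The alternatives for arms and X, and the one without the tandem repeat, were chosen after seeing the data.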
